A study of Mus musculus with 24 samples.

Results

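The genes described here code for core proteins of the spliceosome: the Snrp, Srsf, Sf3a, Sf3b and Prpf genes. They were taken by symbol, without pseudogenes named as such, and 44 of the 25965 entries of the expression table matched. Of these, 11 code for small nuclear ribonucleoprotein (snRNP) proteins, 11 for SR proteins and 21 for SF3 and PRPF factors, and the imprinted gene Snrpn is given apart. Membership followed the symbols.

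Splicing removes introns from new transcripts. U1 and U2 snRNPs mark the ends of an intron, the U4/U6.U5 tri-snRNP joins them, and the complex then rearranges into its catalytic form. A ring of Sm proteins is the shared core of the U1, U2, U4 and U5 particles, SF3A and SF3B are parts of U2, most PRPF proteins serve the tri-snRNP or the catalytic steps, and SR proteins bind exons and help to choose splice sites. An ovulated oocyte is arrested in metaphase of the second meiotic division with transcription off, so its messenger RNA is a store made during growth.

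The study compared single, naturally ovulated oocytes of adult wild-type mice with those of mice of genotype Thy1.2-AMHTg/0, in which a transgene under a Thy1.2 promoter overexpresses anti-Müllerian hormone (AMH). From each of 4 females per genotype, 2 or 3 oocytes were sequenced, and the 4 sequencing lanes each carried a transgenic and a wild-type female. The values analysed were those of 10 transgenic oocytes, 11 wild-type oocytes and 1 control RNA that comes with the amplification kit. Another transgenic oocyte of lane 1, and a library made from water, are not analysed here. Females were the replicates, and a mean ± SD over n = 4 refers to females.

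Levels are RPM, a gene's reads scaled to a library of 1000000 reads. The oocyte libraries held 20400000 to 33300000 reads, so that 3 reads stood for 0.0900 to 0.147 RPM (0.136 RPM in the control RNA). All 7 oocyte markers examined were at 1 RPM or more in every oocyte. Of 15 cumulus and granulosa markers, 4 were at 0 in every oocyte, and their summed level was 0.513 to 2.23 RPM in the transgenic females and 1.03 to 11.9 RPM in the wild-type females. Of 5 blood markers, 3 were at 0 in every oocyte. The labels do not give the tissue of the control RNA. It held 6070 RPM of the myelin gene Mbp and 2483 RPM of the synaptic gene Snap25, against at most 10.1 and 0.914 RPM in any oocyte. Of 6 brain markers examined, 1 was at 1 RPM or more in every oocyte. That was Syt1, at 40.6 to 89.7 RPM against 1040 RPM in the control RNA. Amh had at most 0.0353 RPM in any oocyte, so its level there does not check the genotype labels. Sf3a2 (chromosome 10, 80798198 to 80804924) ends 323 bases before the start of Amh (80805248 to 80807648), on the table's coordinates, read as GRCm38.

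The promoters of 4 of the 5 abundant Sm genes are shown because these genes moved together across the oocytes. That of the other, Snrpd1, is not printed. Each window runs from 250 bases before to 50 bases after the RefSeq start on GRCm38.p6, written along the gene's strand. They are Snrpd3 at chr10:75517792-75518091 on the plus strand, Snrpe at chr1:133610231-133610530 on the minus strand, Snrpf at chr10:93589609-93589908 on the minus strand, and Snrpg at chr6:86371290-86371589 on the plus strand. Capitals mark the motifs found on either strand: GGGCGG, bound by SP1; CCAAT, bound by NFY; and CCGGAAG, bound by ETS factors.
Snrpd3: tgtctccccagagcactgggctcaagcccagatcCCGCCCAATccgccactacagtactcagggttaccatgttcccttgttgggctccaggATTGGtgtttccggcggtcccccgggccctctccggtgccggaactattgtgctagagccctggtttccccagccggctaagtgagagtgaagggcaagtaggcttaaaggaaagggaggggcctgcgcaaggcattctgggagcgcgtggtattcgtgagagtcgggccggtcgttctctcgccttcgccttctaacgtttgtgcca
Snrpe: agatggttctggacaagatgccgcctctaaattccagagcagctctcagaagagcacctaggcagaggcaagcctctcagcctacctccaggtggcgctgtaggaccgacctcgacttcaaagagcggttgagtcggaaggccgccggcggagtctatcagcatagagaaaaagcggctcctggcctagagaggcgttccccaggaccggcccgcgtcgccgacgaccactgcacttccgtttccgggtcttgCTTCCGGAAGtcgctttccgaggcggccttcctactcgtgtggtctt
Snrpf: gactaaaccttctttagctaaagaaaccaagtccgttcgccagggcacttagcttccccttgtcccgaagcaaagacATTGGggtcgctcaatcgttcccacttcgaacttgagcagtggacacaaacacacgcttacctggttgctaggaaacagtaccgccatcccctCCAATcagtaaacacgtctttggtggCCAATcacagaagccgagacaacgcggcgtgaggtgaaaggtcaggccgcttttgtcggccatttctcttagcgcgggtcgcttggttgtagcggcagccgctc
Snrpg: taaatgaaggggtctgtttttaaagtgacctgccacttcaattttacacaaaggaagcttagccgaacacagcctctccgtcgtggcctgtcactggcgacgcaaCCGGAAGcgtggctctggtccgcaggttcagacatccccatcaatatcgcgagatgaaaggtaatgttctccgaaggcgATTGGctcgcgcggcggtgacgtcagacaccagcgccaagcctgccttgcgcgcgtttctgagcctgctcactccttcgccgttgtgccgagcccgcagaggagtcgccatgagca
The run of capitals in Snrpe is the ETS motif on both strands, overlapping, and the first run in Snrpd3 is the SP1 motif on the minus strand overlapping CCAAT. Snrpe and Snrpg hold the ETS motif, and Snrpd3, Snrpf and Snrpg hold CCAAT, so none of these motifs is in all 4 windows printed. RefSeq windows were matched for 38 of the 44 genes (49 windows, since some genes have several). CCGGAAG was in 20 of the 49 windows (40.8%), against 8.86% of all 32851 promoter windows of the same length. GGGCGG was in 55.1% against 35.7%, and CCAAT in 38.8% against 37.4%. The other motifs searched were that of NRF1 (2.04% against 0.971%), AAGATGGC of YY1 (4.08% against 2.75%), the TATA box TATAAA (10.2% against 13.6%) and the E-box CACGTG (12.2% against 7.15%). These are matches of letters in the windows, and the part of promoters in the shared movement was not tested.

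The Sm ring has 7 proteins, and the oocyte's transcripts for them fell into 2 ranges that did not meet. Snrpd3 had 200 RPM in the lowest oocyte, 308 RPM in the median oocyte and 395 RPM in the highest. Snrpd1 had 163, 263 and 402 RPM, and Snrpe had 126, 235 and 314 RPM, in the same order. Snrpg had 51.0, 106 and 157 RPM, and Snrpf had 50.7, 93.4 and 138 RPM. Snrpb (chromosome 2, 130171414 to 130179403), which codes for the SmB and SmB' proteins, had 0.0932, 1.37 and 4.02 RPM. Snrpd2 (chromosome 7, 19149722 to 19152735) had 0.120, 0.534 and 1.45 RPM. Every oocyte thus held more than 50 RPM of 5 Sm transcripts and less than 5 RPM of the other two; the ring holds 1 copy of each protein. The control RNA held 104.5 RPM of Snrpb and 17.6 RPM of Snrpd2. How reads with several genomic matches were treated is not stated, so similar copies among the annotated pseudogenes of GENCODE M21 were counted. The genome itself was not searched, so copies outside that annotation are not in these counts. At 95% identity or more over at least 50% of the coding sequence, Snrpg has 3 other copies, Snrpd2 has 2, Snrpd1, Snrpe and Snrpf have 1 each, and Snrpb and Snrpd3 have 0. Gapdh, with 70 such copies, had 3.68 RPM in the control RNA and at most 0.6 RPM in any oocyte. The part of copies in the levels was not tested. Snrpb is 80.9% identical to Snrpn over 686 coding bases.

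**Figure D1:**
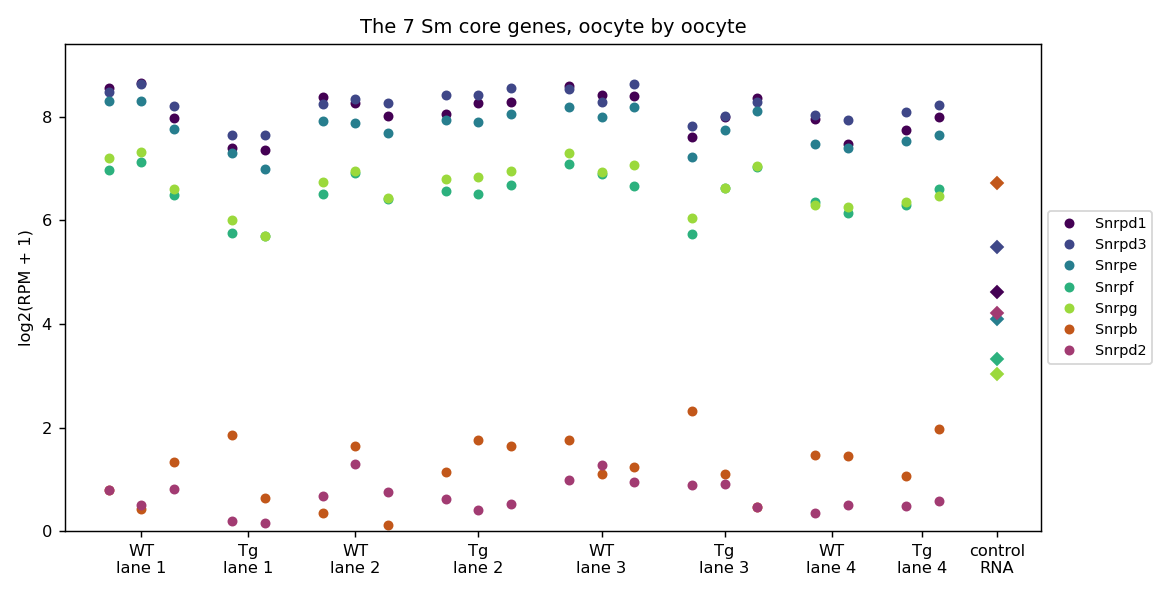
Levels of the 7 Sm core genes as log2(RPM + 1), vertical axis, in each oocyte (circles, grouped by female) and in the control RNA (diamonds). Snrpd1, Snrpd3, Snrpe, Snrpf and Snrpg lie above Snrpb and Snrpd2 in every oocyte, and the transgenic female of lane 1 has the lowest mean of each of those 5.

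The proteins specific to U1 and U2 also spanned a wide range. Snrpb2, a U2 protein, had 190 RPM in the lowest oocyte, 332 RPM in the median oocyte and 404 RPM in the highest, and its partner Snrpa1 of the same particle had 91.9, 168 and 214 RPM. The U1 proteins were lower: Snrpa had 7.73, 16.5 and 21.6 RPM, and Snrpc had 2.39, 3.85 and 6.85 RPM. Every oocyte thus held more of each U2 transcript than of either U1 transcript. Snrpa and Snrpc have 2 and 3 near-identical copies, and Snrpb2 and Snrpa1 have 0. Snrpa1 shares 148 exon bases with Gm45213 on the same strand, and Snrpa shares 327 with BC024978 on the other strand.

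To compare genes with each other, levels were divided by transcript length (RPM per kilobase). On this scale Snrpd1 and Snrpe stood highest, at 402 and 398 RPM per kilobase over the 8 females, and their oocyte ranges (243 to 600 and 230 to 572) overlapped. Snrpd3 followed at 170, Snrpb2 at 151, Sf3b5 at 136 and Snrpa1 at 127 RPM per kilobase. The median small snRNP gene had 92.9 ± 22.5 RPM per kilobase in the transgenic females and 118 ± 23.1 in the wild-type females (SD, n = 4 each). The median SR gene had 24.9 ± 1.95 and 25.2 ± 1.79, and the median SF3 or PRPF gene had 17.9 ± 0.917 and 18.3 ± 2.10 RPM per kilobase. The ratio of the class medians, taken in each female and averaged, was 4.21 ± 1.05 for small snRNP over SR genes and 5.92 ± 1.73 for small snRNP over SF3 and PRPF genes (SD, n = 8). Without division by length the ratios were 1.52 ± 0.451 and 2.08 ± 0.595 (SD, n = 8). On average the order of the classes was thus the same and its size was not. Small snRNP over SR genes did not hold in every female on that scale. The 2 class medians were 57.0 (Snrpg) and 58.2 RPM (Srsf7) for the lane 1 transgenic female. For the lane 4 wild-type female they were 76.3 (Snrpg) and 76.6 RPM (Srsf7).

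The 11 SR genes ranged from 0.0539 RPM per kilobase for Srsf12 to 86.9 for Srsf5 over the females. Srsf3, the smallest SR protein, had 91.8 to 170 RPM in transgenic and 125 to 189 RPM in wild-type oocytes, and Srsf5 had 83.7 to 163 and 106 to 152 RPM. Srsf1 (chromosome 11, 88047373 to 88053755), the founding SR protein also called SF2/ASF, had 0.615 to 1.90 RPM over all oocytes. It has 0 near-identical copies, and the control RNA held 7.80 RPM, the lowest SR level there. Srsf12 was at 0 in 18 of 21 oocytes and at 34.3 RPM in the control RNA. Most SR transcripts were thus measured in a middle range in oocytes, with at most 1.90 RPM of Srsf1 and 1.70 RPM of Srsf12. Whether reads of Srsf1, low in the control RNA too, were lost in counting was not tested.

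Among the SF3 genes, Sf3b1 (chromosome 1, 54985169 to 55027478), whose protein grips the branch site, had the highest RPM. It had 429 RPM in the lowest, 742 RPM in the median and 935 RPM in the highest transgenic oocyte, and 440, 589 and 668 RPM in the wild-type oocytes. Its SF3B partner Sf3b3 had 7.18 to 26.8 RPM over all oocytes, the lowest of the 8 SF3 genes. The reads of Sf3b3 cannot be told apart from those of 188 exon bases shared with Cog4 on the other strand, since no source states that strand was kept. Among the 13 PRPF genes, the tri-snRNP factor Prpf6 had 128 to 284 RPM, and Prpf40b was lowest at 0 to 4.48 RPM. Prpf8, the U5 protein at the catalytic core, had 12.6 to 34.1 RPM, or 3.20 RPM per kilobase over the females. The subunits of 1 complex therefore did not share a level: SF3 genes spanned 3.28 to 136 RPM per kilobase. Among the PRPF genes, Prpf40b stood at 0.599 RPM per kilobase against 62.6 for Prpf6.

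**Figure D2:**
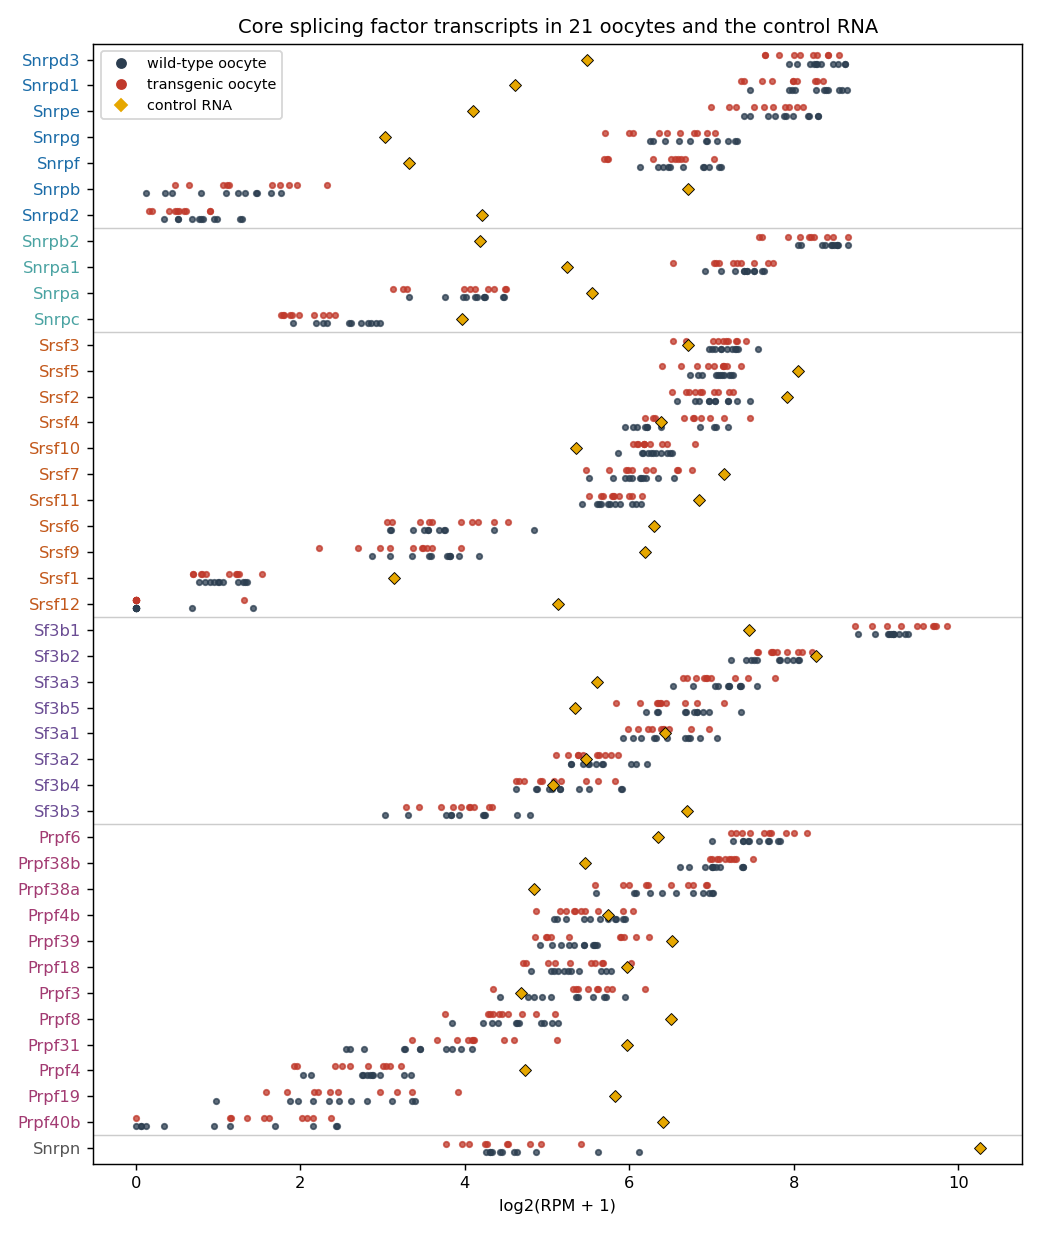
Level of each of 43 genes as log2(RPM + 1), horizontal axis, in wild-type oocytes (dark circles), transgenic oocytes (red circles) and the control RNA (diamonds), ordered by class and mean level. Snrpb, Snrpd2, Srsf1, Srsf12 and Prpf40b sit at the low end in oocytes, and Snrpn is the gene farthest to the right in the control RNA.

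Against the control RNA, the classes took different directions. This comparison has 1 control library, no replicate and no test, and a change means more than 2-fold between the mean of the females and that library. Over the 10987 genes that averaged 1 RPM or more over the oocytes, 35.8% were over 2-fold higher and 38% over 2-fold lower in oocytes. The median log2 ratio was -0.06. The control did not enter this filter, so genes low in oocytes were left out whatever their level in the control. Of the 10 small snRNP genes in that set, 7 were higher and 3 lower, with a median log2 ratio of 2.97. Of 10 SR genes, 0 were higher and 5 lower (median -1.002), and of 21 SF3 and PRPF genes 7 were higher and 7 lower (median 0.01). The filter left out Snrpd2 and Srsf12, both over 2-fold higher in the control. With them the median was 2.72 over 11 small snRNP genes and -1.015 over 11 SR genes.

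The genes behind the high snRNP median were the 5 abundant Sm genes and the U2 pair. Snrpb2 stood 17.9-fold above the control's 17.3 RPM, Snrpg 14.0-fold above 7.17 RPM, Snrpe 13.6-fold above 16.1 RPM and Snrpd1 11.5-fold above 23.5 RPM. The lower ones were Snrpb, where the control was 67.0-fold above the oocytes, Snrpc (3.60-fold) and Snrpa (2.87-fold). Snrpd2, below the level filter, was 29.5-fold higher in the control. The ring therefore held genes far above the control and genes far below it at the same time. Among the SF3, PRPF and SR genes, Sf3b1 was 3.62-fold higher in oocytes and Prpf38b 3.19-fold, while Prpf40b was 44.7-fold, Prpf19 10.1-fold, Srsf1 7.15-fold and Srsf9 6.98-fold higher in the control. The common cell transcript Actb was also low in oocytes relative to the control, at 18.3 to 88.7 RPM against 311 RPM.

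**Figure D3:**
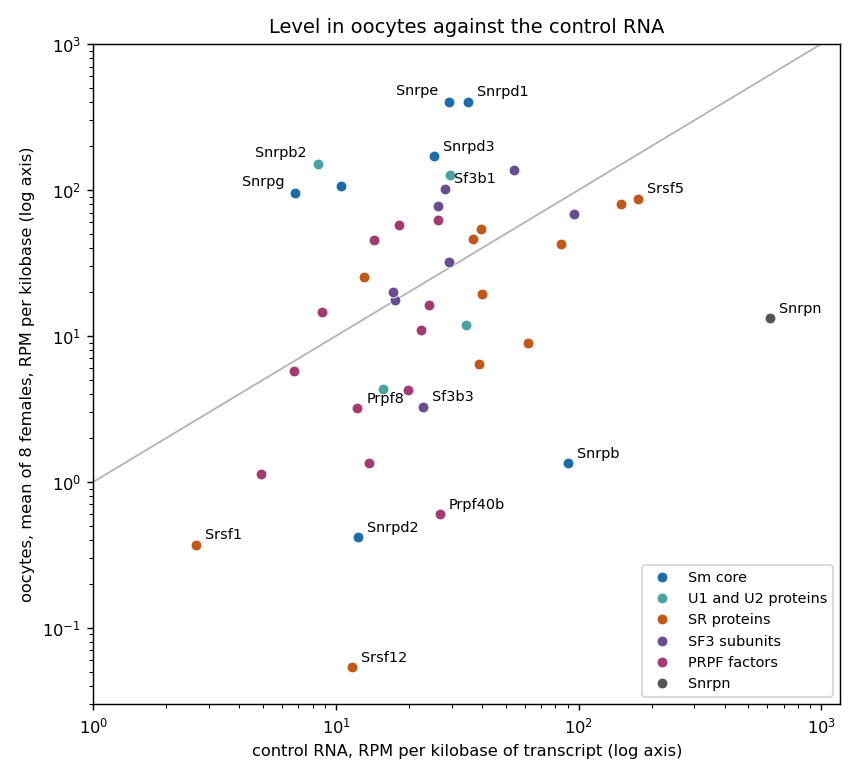
Mean level over the 8 females (vertical, log axis) against the control RNA (horizontal, log axis) in RPM per kilobase for each of 43 genes, coloured by class, with the line of equal levels. Snrpe, Snrpd1, Snrpd3, Snrpg and Snrpb2 lie above the line, and Snrpb, Snrpd2, Srsf12, Prpf40b and Snrpn lie far below it.

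The 5 abundant Sm transcripts rose and fell together from oocyte to oocyte. Their pairwise Pearson's r of log2(RPM + 1) over the 21 oocytes was 0.853 to 0.986, with a median of 0.928, against a median of 0.006 over the pairs of all tested genes. With each female's mean subtracted, it was 0.737 to 0.956 (median 0.854). The oocytes come from 8 females, and values of 1 library share its total, so r is given as a description. Snrpb2 followed the 5 Sm genes at 0.818 to 0.890 and Snrpa1 at 0.737 to 0.805. In the other classes the median r was -0.017 among 10 SR genes (highest pair 0.757), -0.082 among 8 SF3 genes (highest 0.844) and 0.055 among 13 PRPF genes (highest 0.625). Snrpb, at only 0.0932 to 4.02 RPM, did not follow the ring, with an r as low as -0.278 to another Sm gene. The part of counting noise at so few reads was not tested.

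The same oocytes also differed in the share of their reads that fell in listed genes, which ran from 91.1% to 94.8%. The mean log2 level of the 5 Sm genes had an r of -0.820 with that share over 21 oocytes (Spearman's rho -0.786). It was -0.810 without the 2 oocytes farthest from the median share. With lane means subtracted r was -0.846. Within lanes, r was -0.357 over the 6 oocytes of lane 2 and -0.927 over the 6 of lane 3, and lanes 1 and 4 held too few oocytes. With the mean of the ribosomal protein genes r was 0.660 (rho 0.560), and 0.449 without the 2 oocytes farthest from the median of that mean. With the library total r was -0.491 (rho -0.397), and with the mean of the SR genes -0.351 (rho -0.445). Without the 2 oocytes farthest from the median of each measure, these were -0.514 and -0.633. The part of these quantities in the shared movement was not tested.

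**Figure D4:**
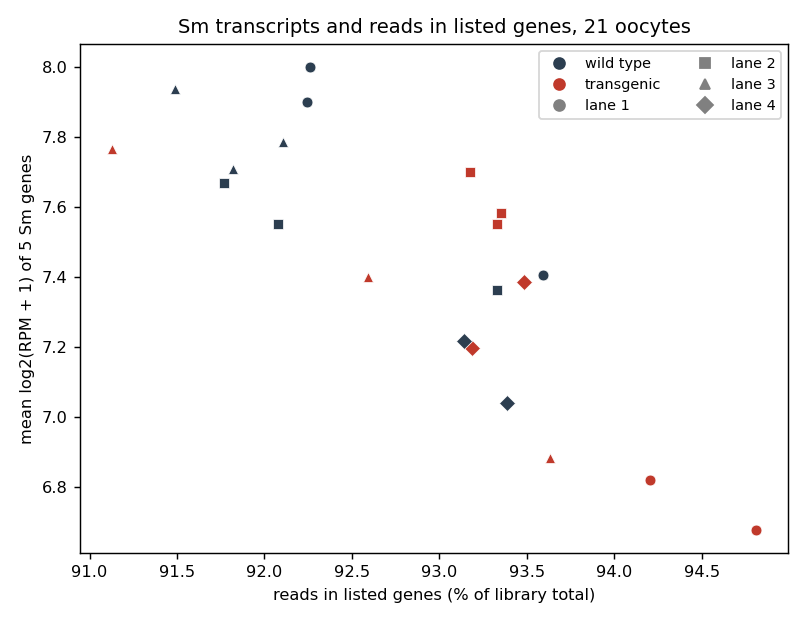
Mean log2(RPM + 1) of Snrpd1, Snrpd3, Snrpe, Snrpf and Snrpg (vertical) against the percent of a library's reads in listed genes (horizontal) for 21 oocytes, coloured by genotype and shaped by lane. The oocytes with the largest share of listed reads have the lowest Sm levels, and the 2 oocytes of the transgenic female of lane 1 lie at the lower right.

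Whether AMH overexpression went with other levels of these genes was asked with limma over all 10987 tested genes, on the 4 transgenic and 4 wild-type female means of log2(RPM + 1). No gene, and so none of the 42 members tested, reached an adjusted p of 0.05 (0% of all genes, smallest adjusted p 0.724 by limma). Snrpd2 and Srsf12 were below the level filter and were not tested. At an unadjusted p of 0.05, 305 genes were higher (2.78%) and 443 lower (4.03%) in transgenic oocytes. Scaling by median ratios in place of library totals gave 393 higher and 369 lower. Among the 41 members without Snrpn, 1 was higher and 1 lower at that unadjusted level, against 6.81% of all genes in either direction.

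The higher one was Prpf31 (chromosome 7, 3629985 to 3642486), which holds the U4/U6 and U5 particles together. It had 15.7, 20.2, 20.6 and 11.6 RPM in the transgenic females of lanes 1 to 4 and 10.9, 11.8, 9.37 and 6.81 RPM in the wild-type females. The log2 difference, transgenic minus wild type, was 0.77 ± 0.24 (SE; unadjusted p 0.00667, adjusted p 0.724 by limma). It was 0.50, 0.82, 1.04 and 0.70 in lanes 1 to 4. On the log2 means the females of the genotypes did not overlap, as for 1.67% of all genes, whereas as RPM the transgenic female of lane 4 lay just under the highest wild-type female. Single oocytes overlapped, at 9.28 to 33.9 RPM in transgenic and 4.89 to 16.1 RPM in wild-type oocytes. Prpf31 shares 984 exon bases with Gm15927 on the other strand, so its reads and those of that transcript cannot be told apart.

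The lower one was Snrpc (chromosome 17, 27839974 to 27851968), whose protein helps U1 to bind the start of an intron. It had 2.53, 3.53, 2.93 and 3.52 RPM in the transgenic females of lanes 1 to 4 and 5.23, 5.19, 5.58 and 3.94 RPM in the wild-type females. Every transgenic female lay below every wild-type female, as for 2.64% of all genes. The log2 difference was -0.52 ± 0.22 (SE; unadjusted p 0.0333, adjusted p 0.724 by limma), and it was -0.75, -0.43, -0.76 and -0.14 in lanes 1 to 4. With the lane as a block the unadjusted p was 0.0526 for Snrpc and 0.00303 for Prpf31, with adjusted p of 0.537 and 0.455 (limma). Snrpc has 3 near-identical copies among the annotated pseudogenes.

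By class, the small snRNP genes had the lowest differences. Of 10 tested, 9 were below the wild type (90%), against 52.2% of all genes, and their median log2 difference was -0.27 against -0.01 over all genes. The SR genes had 7 of 10 lower with a median of -0.04, and the SF3 and PRPF genes 10 of 21 lower with a median of 0.03. Within the last class, 9 of 13 PRPF genes were higher (median 0.15) and 6 of 8 SF3 genes lower (median -0.11). These counts and medians describe genes that share their libraries, and no class was tested as a whole.

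The differences of the abundant Sm genes were not the same in every lane. Snrpd1 had 165, 293, 259 and 233 RPM in the transgenic females of lanes 1 to 4 and 342, 298, 354 and 211 RPM in the wild-type females. Its differences were -1.02, -0.02, -0.48 and 0.15, so that lanes 1 and 3 had the lower transgenic female, lane 2 had nearly equal females and lane 4 the higher one. The groups overlapped, and the log2 difference over all females was -0.34 ± 0.20 (SE; unadjusted p 0.117, adjusted p 0.764 by limma). Snrpf had -0.34 ± 0.21 and Snrpg -0.36 ± 0.23 (SE), both lowest in lane 1 and next lowest in lane 3. Snrpf shares 567 exon bases with Ccdc38 and 168 with 4933408J17Rik on the other strand, and Snrpd3 shares 232 with Gucd1 there. The mean log2 level of the 5 Sm genes was 7.25 ± 0.36 in the transgenic and 7.56 ± 0.31 in the wild-type females (SD, n = 4 each), a difference within the spread of females, and it was -1.02, 0.08, -0.46 and 0.16 in lanes 1 to 4. Without the transgenic female of lane 1 the class median was -0.14, and leaving out the wild-type female of lane 4 gave -0.40.

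Other quantities also differed between the paired females. The share of reads in listed genes was higher in the transgenic female by 1.81, 0.90, 0.65 and 0.07 percentage points in lanes 1 to 4. The mean log2 level of the ribosomal protein genes was -0.57, -0.29, -0.24 and -0.35 in the same lanes, and 56 of 58 such genes were below the wild type (median log2 difference -0.40). The cumulus markers given above also had a lower summed range in the transgenic females. Their part in the Sm differences was not tested. Snrpb differed from the rest of its ring in sign, at 1.85 ± 0.167 RPM in transgenic against 1.28 ± 0.494 RPM in wild-type females (SD, n = 4 each; log2 difference 0.30 ± 0.25 SE).

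**Figure D5:**
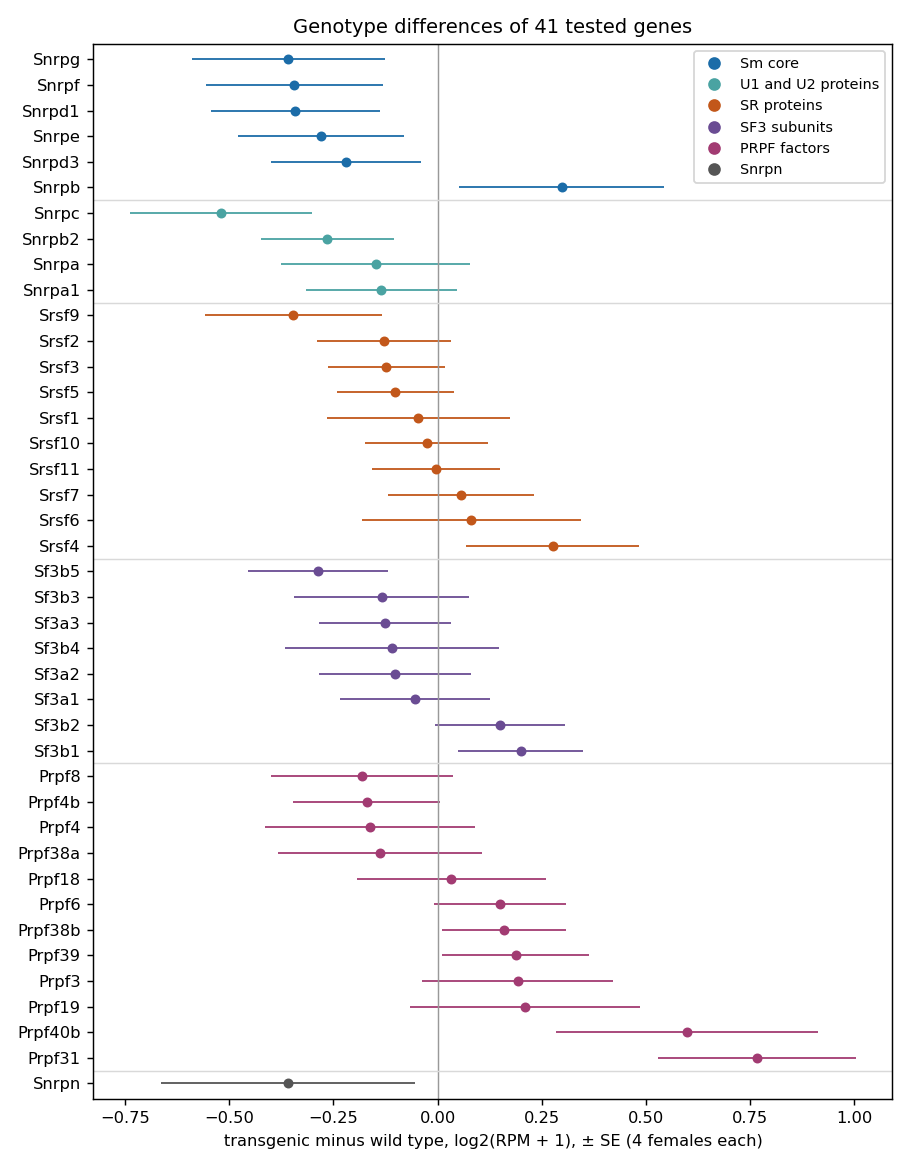
Log2 difference of log2(RPM + 1), transgenic minus wild type (horizontal), with its standard error (bars) from limma for each of 41 tested genes, over 4 females each. Of the small snRNP genes only Snrpb lies right of 0, Prpf31 lies farthest right at 0.77 and Snrpc farthest left at -0.52.

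The other members were closer to the wild type or spread more between females. Among the SR genes, Srsf9 was lower in all 4 lanes (-0.35 ± 0.21 SE), Srsf4 had the highest difference (0.28 ± 0.21 SE), and the adjusted p was 0.764 and 0.796 (limma). Srsf4 shares 1532 exon bases with Gm12992 on the other strand, so their reads cannot be told apart. Sf3b1 had 638, 808, 762 and 528 RPM in the transgenic females of lanes 1 to 4 and 582, 550, 612 and 577 RPM in the wild-type females. Its groups overlapped, 3 of 4 lanes were higher, and the log2 difference was 0.20 ± 0.15 (SE; adjusted p 0.796 by limma). Sf3b5, a small SF3B subunit, was lower in all 4 lanes (-0.29 ± 0.17 SE), and Sf3b2 had 0.15 ± 0.16. Among the PRPF genes, Prpf39 had 0.19 ± 0.18 and Prpf6 0.15 ± 0.16 (SE). Prpf40b was higher in all 4 lanes (0.60 ± 0.32 SE; adjusted p 0.757 by limma) at 2.28 ± 1.16 against 1.47 ± 0.898 RPM (SD, n = 4 each). Of the 41 members, 5 were lower and 4 higher in all 4 lanes, against 10.3% and 7.97% of all genes. Sf3a2, the neighbour of Amh, had 37.1 to 52.4 RPM in the transgenic females and 40.4 to 60.4 RPM in the wild-type females (log2 difference -0.10 ± 0.18 SE).

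Sister oocytes of 1 female differed less in these genes than in the median tested gene, and the gap was small among genes at like levels. The SD among sisters, on log2(RPM + 1), had a median of 0.27 for the small snRNP, 0.24 for the SR and 0.32 for the SF3 and PRPF genes, against 0.41 over all tested genes. Among genes that averaged 50 RPM or more it was 0.247 for 23 members and 0.263 for all 3129 genes. Snrpd3 varied little (0.15), and Prpf40b (0.90), Prpf19 (0.77) and Snrpb (0.63), all at a few RPM, varied most.

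Snrpn (chromosome 7, 59982495 to 60140219) codes for SmN, which takes the place of SmB in neurons, and is expressed from the paternal allele in somatic tissue. It had 12.7 RPM in the lowest, 20.1 RPM in the median and 41.6 RPM in the highest transgenic oocyte, and 18.1, 20.9 and 68.6 RPM in the wild-type oocytes. The control RNA held 1232 RPM, 46.7-fold more. The oocyte medians of the genotypes were alike, and the 2 highest wild-type oocytes, at 48.2 and 68.6 RPM, were those of the female of lane 4. The log2 difference was -0.36 ± 0.30 (SE; adjusted p 0.820 by limma), and without that female it was -0.01. Every oocyte held more Snrpn than Snrpb, and so did the control RNA, at 1232 against 104.5 RPM. Snrpn shares 216 exon bases with Snurf and 589 with Gm38393 on the same strand, and 80.9% of its aligned coding bases with Snrpb, so reads of these genes may have been shared or dropped in counting.

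The wider spliceosome was read from 8 lists with 129 symbols, of which 126 matched and 118 were tested. No gene of these lists had an adjusted p under 0.05 (limma). At an unadjusted p of 0.05, 6 were lower and 2 higher, against 6.81% of all genes in either direction, and 66 of 118 were below the wild type, against 52.2% of all genes. The Lsm ring, which binds U6 or messenger RNA in the way the Sm ring binds the other snRNAs, had 6 of 6 tested genes lower, with a median log2 difference of -0.53, against 52.2% and -0.01 over all genes. The ribosomal protein genes, with 56 of 58 lower and a median of -0.40, lay on the same side in these libraries. Lsm3 had 51.1 ± 12.7 RPM in the transgenic females and 73.8 ± 18.4 RPM in the wild-type females (-0.56 ± 0.20 SE), and Lsm2 had 44.3 ± 13.6 and 65.0 ± 10.7 RPM (-0.60 ± 0.22 SE). Their adjusted p was 0.724 (limma), and both were lower in all 4 lanes. A further Lsm gene under the unadjusted threshold was Lsm5 (-0.75 ± 0.28 SE).

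The other lists had medians between -0.13 and 0.03. Among the further snRNP proteins, 13 of 20 were lower. The SF3B subunit Phf5a had 124 ± 33.5 RPM in the transgenic females and 188 ± 48.0 RPM in the wild-type females, and the tri-snRNP protein Snrnp27 had 390 ± 70.5 and 489 ± 39.1 RPM. Among 26 factors of the Prp19 complex and the catalytic steps, 15 were lower and 11 higher. Bud31 had -0.58 ± 0.22, Cdc5l 0.77 ± 0.33 and Cwc22 0.37 ± 0.17 as log2 differences (SE), all with an unadjusted p under 0.05 and an adjusted p of 0.724 to 0.726 (limma). Among genes that recognise the end of an intron, 6 of 10 were lower, with U2af2 at 3.92 ± 0.915 against 5.80 ± 1.58 RPM and U2af1l4 at 46.2 ± 17.1 against 67.6 ± 26.2 RPM.

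In the last 4 lists no gene had an unadjusted p under 0.05 (limma). The exon junction complex had 3 of 5 lower, with Rbm8a at 13.4 ± 5.49 against 23.5 ± 14.6 RPM and Magohb at 69.1 ± 17.5 against 84.7 ± 16.9 RPM. Of the SR-related factors and kinases 4 of 13 were lower. Son had 227 ± 43.5 against 285 ± 60.7 RPM (log2 difference -0.32), and Tra2a had 3.98 ± 0.715 against 2.94 ± 1.30 RPM (0.40). Of the snRNP assembly factors 8 of 13 were lower. Gemin6 of the SMN complex had 16.2 ± 1.69 against 21.2 ± 4.46 RPM, and Gemin7 had 30.7 ± 11.6 against 44.2 ± 12.9 RPM. Of the hnRNP proteins, which bind nascent transcripts, 11 of 25 were lower. Pcbp2 had 133 ± 51.3 against 170 ± 21.6 RPM (-0.43), and Hnrnpm had 15.7 ± 1.13 against 11.4 ± 2.08 RPM (0.40).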

How the data were processed

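Per the labels' protocols, oocytes were freed of cumulus cells and zona, lysed singly and amplified with SMART-Seq v4, with ThruPLEX libraries. Trim Galore, FastQC and HISAT2, with the builds GRCm39 and mm39, are named without versions in the submitters' processing notes. Neither the counting tool nor the strand setting is given in the sources used here. The deposited values are log2 values made by the authors per library. They are described as RPKM but hold log2 RPM with no division by length, and absent genes sit at 0.9 reads. Whole reads were recovered within 0.02 for 100% of the 256342 values under 2000 reads. Of the table's IDs, 25035 were in GENCODE M21 and 99.74% of these overlapped the M21 gene, so its coordinates were read as GRCm38.

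From these reads RPM was computed, and log2(RPM + 1), which understates changes of low genes, was averaged per female. The 10987 genes averaging 1 RPM or more over the oocytes were compared with limma 3.58.1 in R 4.3.3 (trend, two-sided, Benjamini-Hochberg, threshold 0.05). This main comparison was made on log2(RPM + 1) and not with a count model. On simulated data with 10901 genes, 50% of log2 changes of 1 and 95% of changes of 2 were recovered, with 7 false calls. By the labels each lane held a transgenic and a wild-type female, which pairs them. Deviations from the group means correlated within lanes at -0.04, 0.08, 0.34 and 0.32, against a median of -0.05 for other pairs. Lengths were medians of M21 basic protein-coding transcripts, limited to the listed span (Sf3b5). Copies were found with BLAST 2.17.0 among M21 pseudogene transcripts alone, at 95% identity over 50% of the coding sequence. Promoters are those of RefSeq. Further named members share exon bases with genes on the other strand. Prpf39 shares 599 with Fkbp3, Sf3a2 429 with Plekhj1, Sf3b2 194 with AC125059.3 and Srsf1 98 with Gm11508. Alternatives were another pseudocount, other filters on low values, median-ratio scaling, the lane as a block, single oocytes with the female as a random effect, voom on recovered reads, leaving out each female, and levels without length.

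Genes named were Snrpn, members with an unadjusted p under 0.05, in each class the 3 with the smallest p, the 2 highest and the lowest by level, and 2 per further list; others are named for their values or role. The members and lists were chosen with earlier results of these data known. Sf3b6 stands in the table as 0610009D07Rik, which the symbols do not match. The values of 1 member, counted in the totals, are not reported here and not plotted.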

Additional observations from a re-analysis of the deposited data

Results flagged for a closer look

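In 5 of 85 groups of 4 females examined, the lowest or highest female stood apart from the others by more than Dixon's critical ratio (95%). Chance alone gives about 1 in 20 such groups. The ratio was taken on the female means of log2(RPM + 1). The values below are female means of RPM, so the ratio cannot be recomputed from them. The wild-type female of lane 4 was apart in 3 of them. It had 3.499 RPM of Prpf19, against 5.236 to 5.789 RPM in the other wild-type females. It had 101.2 RPM of Prpf38b, against 137.9 to 144.1 RPM, and 141.1 RPM of Sf3b5, against 97.38 to 103.2 RPM. The transgenic female of lane 4 had 157.2 RPM of Prpf6, against 215.1 to 217.3 RPM in the other transgenic females. The transgenic female of lane 1 had 51.68 RPM of Snrpf, against 86.55 to 95.15 RPM, and it was the lowest female for the other 4 abundant Sm genes too.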

How the results depend on the processing

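No member had an adjusted p under 0.05 in any of 15 alternatives. Over all genes there were 0 such genes by female means, 12 with single oocytes and the lane as a replicate block, and 0 to 1 when a female was left out (1 without the transgenic female of lane 1). With the lane as a replicate block on female means there were 0, with a smallest adjusted p of 0.447 (limma), and 399 genes were higher and 629 lower at an unadjusted p of 0.05. Members at that level numbered 2, against 1 with a minimum of 5 RPM, 6 with single oocytes and the lane block, and 1 to 8 when a female was left out. It was 1 without the transgenic female of lane 1 or 3 or the wild-type female of lane 1 or 2. Leaving out the wild-type female of lane 4 gave 8, which added Snrpb2, Snrpd1, Snrpe, Snrpf, Snrpg and Srsf4. With the lane block the pair was Prpf31 and Prpf40b, and the block changed no other call. Of 21 named members with 313 alternative values, 312 kept their sign; Snrpa1 ran from -0.253 to 0.002, the latter without the transgenic female of lane 1. The small snRNP median ran from -0.399 to -0.14. Ratios of class levels without length were 1.52 and 2.08. The depth limits Snrpb, Snrpd2, Srsf1, Srsf12 and Prpf40b most, where 3 reads are 0.0900 to 0.147 RPM.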
